A study of Mus musculus with 12 samples.

Results

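Cthrc1, Lum, Col6a3, Col11a1 and Col5a2 are 5 of the 26061 genes in the deposited expression table. They encode secreted proteins of the extracellular matrix, and they were chosen by their normalised read levels, because libraries with an shRNA against Setdb1 had more of their RNA than control libraries in serum, in 2i or in both media. Cthrc1 and Lum were singled out because their increases differed between the media. The contrasts of knockdown with control, and the difference between them, therefore chose the members, so their values in those contrasts are given as a description with no test. In serum the name of the set holds in part: Col11a1 had the same level with either shRNA, and Col6a3 and Col5a2 overlapped between the groups.

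The cells were E14 mouse embryonic stem cells of 129/Ola background, kept on gelatin with no feeder layer. They grew either in serum medium with LIF, which the submitters call primed, or in 2i medium, which they call naive and which holds N2, B27, LIF, PD0325901 against MEK and CHIR99021 against GSK3. All cells carried a pLKO.1 lentivirus with either a non-targeting shRNA (shScr) or an shRNA against Setdb1 (shSetdb1). Puromycin at 1 µg/ml was added 48 hours after infection, and cells were taken after 3 days of selection. The 4 groups were serum shScr, serum shSetdb1, 2i shScr and 2i shSetdb1, with 3 strand-specific libraries each, made from total RNA after removal of ribosomal RNA. Controls thus shared the virus and the selection with the knockdown cells. There was no rescue of Setdb1 and no other shRNA against it, so Setdb1 loss and anything else this hairpin does cannot be told apart. The labels do not say whether replicates were separate cultures, and p-values measure the spread between these libraries, which may be technical.

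SETDB1 is a methyltransferase that places methyl groups on lysine 9 of histone H3, a mark of silent chromatin, and in embryonic stem cells it is best known for silencing endogenous retroviruses. Collagens are built from chains that wind into trimers: fibrillar collagens such as types V and XI form or nucleate fibrils, and type VI forms a beaded network around cells. Lumican, a small leucine-rich proteoglycan, binds collagen fibrils and helps set their width and spacing. CTHRC1 is a secreted glycoprotein with a short collagen-like stretch that has been tied to Wnt planar polarity signalling and to tissue repair. These genes are mostly products of fibroblasts, cartilage and other connective tissue, and an undifferentiated stem cell makes little of them.

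Of the 5 members, 2 had an entry in the RefSeq promoter table (assembly GRCm38.p6, whose windows run from 250 bases before to 50 bases after a start). They are shown because they are the upstream sequences at hand for genes that were low in controls and higher in 2i knockdown cells. Each is printed 5′ to 3′ on the strand of the gene, cut where the annotated gene begins, with CG dinucleotides in capitals. The first is the upstream stretch of Col6a3, on the minus strand at chr1:90844002-90844221, 220 bases long with 3 CG. The other belongs to Col11a1, on the plus strand at chr3:114030290-114030478, 189 bases long with 3 CG.
Col6a3: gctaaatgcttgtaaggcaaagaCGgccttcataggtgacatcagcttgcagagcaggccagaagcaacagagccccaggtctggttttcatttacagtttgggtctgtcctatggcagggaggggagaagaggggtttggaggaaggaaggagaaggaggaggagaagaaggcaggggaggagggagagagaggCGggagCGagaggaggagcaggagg
Col11a1: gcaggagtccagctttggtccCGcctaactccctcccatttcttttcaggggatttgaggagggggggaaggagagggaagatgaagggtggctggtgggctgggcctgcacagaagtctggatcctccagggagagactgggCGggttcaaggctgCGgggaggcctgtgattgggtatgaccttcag
The whole window of 300 bases held 3 CG for Col6a3 and 9 for Col11a1. Among 32851 such windows the median was 7, and 76.7% and 45.8% of windows held at least as many. The letters TATAAA, searched on both strands, were in neither window and in 13.6% of all windows. The data hold no measure of chromatin or methylation at these stretches.

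Gene reads per library ranged from 4821181, in 2i shSetdb1 replicate 3, to 15509401. Values below are normalised reads, which are whole reads, recovered from the deposited values, over each library's size factor. Replicates of a group differed in composition: small structural RNAs and tRNAs took 16.1, 15.6 and 42.6% of the repeat reads in serum shSetdb1 and 19.9, 55.6 and 69.5% in 2i shSetdb1. They took 24.2, 29.9 and 48.3% in serum shScr and 32.1, 38.9 and 64.6% in 2i shScr, so replicate 3 had the highest share in every group. Setdb1 fell in both media, from 2260 ± 687 to 402 ± 20.6 normalised reads in serum (SD, n = 3), with a log2 change of −2.33 (SE 0.33) at a limma adjusted p of 0.00219, and from 2860 ± 687 to 596 ± 249 in 2i (−2.24, SE 0.33, limma adjusted p = 0.00173).

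Cthrc1 was the member with the larger change in serum. Its serum controls had 1.09, 0 and 2.14 normalised reads in replicates 1, 2 and 3, and its serum knockdown libraries had 371, 787 and 448. In 2i the controls had 0, 0.69 and 0 and the knockdown libraries 66.1, 19.3 and 38.7. The gene was thus close to silent in all 6 control libraries, was present in all 6 knockdown libraries, and no 2i knockdown library reached the lowest serum one.

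The mean of Cthrc1 went from 1.07 ± 1.07 to 535 ± 222 in serum (SD, n = 3), a log2 change of 4.40 in the deposited values. The ratio was 530, with a 95% interval of 181 to 2570 that covers counting error only, because the controls held 3 reads in all. In 2i the mean went from 0.23 ± 0.398 to 41.4 ± 23.5, a log2 change of 1.71 and a ratio of 166 (29.2 to 6600) over 1 control read. Such ratios rest on single control libraries: the serum ratio was 330 (113 to 1600) without shScr replicate 2 and 1090 (196 to 43100) without shScr replicate 3. The 2i ratio was 103 (18.2 to 4120) without shScr replicate 1, at least 30.8 without shScr replicate 2 and 90.3 (15.1 to 3680) without shSetdb1 replicate 1.

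Lum, which encodes lumican, had the opposite order of media. No read was found in the 3 serum controls, and the serum knockdown libraries had 6.85, 5.05 and 2.88 normalised reads, from 9, 6 and 3 reads. The 2i controls had 0, 2.76 and 0, and the 2i knockdown libraries 736, 102 and 542. Every knockdown library exceeded every control of its medium, and the lowest 2i knockdown library was far above the highest serum one.

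In serum Lum went from 0 to 4.92 ± 1.99 normalised reads, at least 4.9-fold against the 3 reads over the group that a count of 0 allows. This takes the 18 reads of the serum knockdown libraries as exact. That bound ranged from 3.05 to 5.91 when each serum library was left out, and was lowest without shScr replicate 2. In 2i it went from 0.92 ± 1.59 to 460 ± 325 normalised reads, 500-fold, with a log2 change of 4.03 against 0.67 in serum. All 4 of its control reads were in 2i shScr replicate 2, and the fold was at least 343 without that library and 333 without either other control.

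Set against each other, the change of Cthrc1 in 2i minus that in serum was −2.69 on the log2 scale of the deposited values and that of Lum 3.36. As ratios, the counting intervals of Cthrc1 overlapped between serum (181 to 2570) and 2i (29.2 to 6600). Cthrc1 and Lum were each nearly absent from both control groups, so the contrast between them lay in the knockdown cells. Per kilobase of the longest coding transcript, Cthrc1 (1.17 kb) stood at 459 ± 190 normalised reads in serum knockdown cells and Lum (2.45 kb) at 2.01 ± 0.812. In 2i knockdown cells Lum stood at 188 ± 133 and Cthrc1 at 35.5 ± 20.2, and the lowest library of Lum, at 41.5, lay below the highest of Cthrc1, at 56.7. Those were different libraries: replicate 2 was the lowest for both genes, at 41.5 and 16.5, and replicate 1 the highest for both, at 300 and 56.7. Within every knockdown library Cthrc1 was thus the higher in serum and Lum the higher in 2i, although in 2i the ranges of the 2 genes overlapped. In bulk RNA, a change in the number of cells that express a gene and a change in RNA per cell cannot be told apart.

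**Figure D1:**
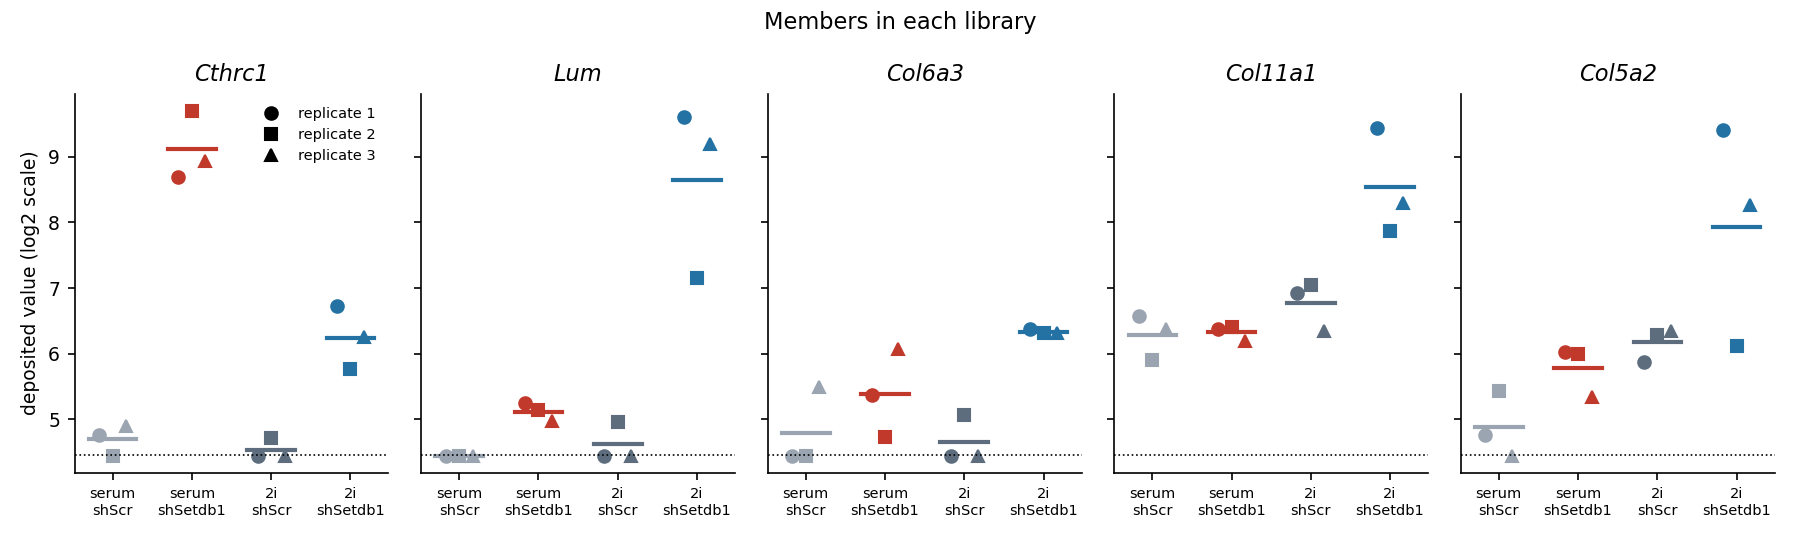
Deposited log2-scale value of each member (vertical axis) in the 12 libraries, by group, with 1 symbol per replicate, bars at the group means and a dotted line at the value of 0 reads (4.4522). Cthrc1 is highest in serum shSetdb1, Lum, Col6a3, Col11a1 and Col5a2 in 2i shSetdb1, and Col11a1 and Col5a2 lie above the dotted line in all 2i controls.

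Col6a3 encodes the large chain of collagen VI that joins COL6A1 and COL6A2 in its classical trimer and carries endotrophin at its end. It had 0, 0 and 11.8 normalised reads in the serum controls and 9.13, 0.842 and 30.7 in the serum knockdown libraries. In 2i the controls had 0, 4.14 and 0, and the knockdown libraries 44.6, 41.6 and 41.5. The serum groups overlapped, whereas in 2i the knockdown libraries were all above the controls. Their values were almost equal, but they came from 58, 41 and 15 reads. Counting error at such numbers is wider than this spread, so the near equality is not read as a trait of the gene.

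The 2i mean of Col6a3 was 42.6 ± 1.75 normalised reads against 1.38 ± 2.39, a fold of 30.9 and a log2 change of 1.67. All 6 control reads were in shScr replicate 2, and the fold was at least 31.7 without it and 20.6 without either other control. In serum the fold was 3.46 (13.5 ± 15.4 against 3.92 ± 6.79), and it was 1.27 without shSetdb1 replicate 3, 2.3 without shScr replicate 1 or 2 and at least 9.24 without shScr replicate 3. The difference of the log2 changes was 1.07.

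In 2i knockdown cells no read of its partner chains was found, beside 114 reads of Col6a3. In serum Col6a2 had more reads than Col6a3 over the controls and fewer over the knockdown libraries. Col6a3 had 11 reads over the serum controls and 45 over the serum knockdown libraries. These reads are not scaled to transcript length. Col6a1 had 0 reads in both knockdown groups and in serum controls and 5 reads over the 2i controls. Col6a2 had 0 reads in 2i knockdown cells and 18 over the serum knockdown libraries, against 20 over the serum controls. Both were under the filter on low values and were not tested, and they are named for their place in the trimer. Among the other chains of the type, Col6a5, picked out after its values were seen, went from 3.58 ± 4.53 to 114 ± 110 normalised reads in 2i, with no overlap between the groups, and did not pass (log2 change 2.03, SE 0.55, limma adjusted p = 0.118). It passed without 2i shSetdb1 replicate 2 (limma adjusted p = 0.0177).

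Col11a1 encodes the alpha 1 chain of collagen XI, a cartilage collagen found within type II fibrils, and unlike the 3 genes above it was present in every library. The serum controls had 56.4, 24 and 44.9 normalised reads and the serum knockdown libraries 44.9, 46.3 and 36.4. In 2i the controls had 80.9, 91.7 and 43.4 and the knockdown libraries 653, 192 and 274. The serum groups lay within the same range, and in 2i every knockdown library was above every control.

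In serum Col11a1 had a ratio of 1.02 (42.5 ± 5.34 against 41.8 ± 16.5) and a log2 change of 0.04, which was −0.15 without shScr replicate 2. In 2i it was 5.18-fold higher, going from 72 ± 25.3 to 373 ± 246 normalised reads, with a log2 change of 1.77. Without shSetdb1 replicate 1, its highest library, the 2i fold was 3.23. The difference of the changes was 1.73.

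Col5a2 encodes the alpha 2 chain of collagen V, which regulates the diameter of type I fibrils and is altered in classical Ehlers-Danlos syndrome. Its serum controls had 1.09, 10.7 and 0 normalised reads and its serum knockdown libraries 28.9, 27.8 and 8.63. The 2i controls had 23.1, 40.7 and 43.4 and the 2i knockdown libraries 638, 32.5 and 265. Groups overlapped in both media: serum shSetdb1 replicate 3 lay below the highest control, and 2i shSetdb1 replicate 2 lay within the range of the 2i controls.

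The serum mean of Col5a2 was 21.8 ± 11.4 against 3.92 ± 5.87, a fold of 5.56 that became 41.9 (7.31 to 1680) without shScr replicate 2, where 1 control read was left. In 2i it was 312 ± 305 against 35.7 ± 11, a fold of 8.73 that became 4.17 without shSetdb1 replicate 1. The log2 changes of 0.90 and 1.76 differed by 0.86 in the deposited values, but by −0.47 on the scale of log2(normalised reads + 1), so which medium had the larger change depends on the scale. Col5a1, which supplies the other chains of the common collagen V trimer, had 53.5 ± 3.92 normalised reads in serum knockdown cells against 88.5 ± 53.5 (log2 change −0.40, limma adjusted p = 1). In 2i it had 39.9 ± 34.7 against 41.5 ± 10.8 (−0.14, limma adjusted p = 0.961).

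Counted together, 2 members in serum (Cthrc1 and Lum) and 4 in 2i (those and also Col6a3 and Col11a1) had all 3 knockdown libraries above all 3 controls. Over the 14487 genes tested this held for 6.12% in serum and 6.33% in 2i. Because these contrasts chose the members, nothing is read from those counts. All 5 members passed the filter, the lowest mean being 5.29 against a threshold of 4.95.

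The 3 libraries of 2i knockdown cells were far apart for most members. Replicate 1 was the highest for 5 of 5 members and the order was replicate 1, 3, 2 for 4 of them. The exception was Col6a3, whose libraries lay between 41.5 and 44.6, closer than counting error at its 15 to 58 reads can resolve. Over all genes tested, replicate 1 was the highest in 40.2% and that order occurred in 13.4%. These same libraries took part in the choice of the members, whose values are also correlated, so nothing is read from the counts. Lum had 736 normalised reads in replicate 1 and 102 in replicate 2. Setdb1 had 837, 610 and 340 normalised reads in replicates 1, 2 and 3. Whether the level of Setdb1 or the composition of the libraries plays a part in this spread was not tested.

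Over the 12 libraries, the deposited values of Lum had a Pearson correlation of 0.93 with Col11a1, 0.89 with Col5a2 and 0.79 with Col6a3. Cthrc1 had correlations between −0.01 and 0.36 with the other 4. These are descriptions over libraries that share 4 groups, and the choice of members enters them. The genes outside the set with the most similar values over the same libraries were Sh3gl3, Jph1 and Mctp1 for Cthrc1 (Pearson correlations 0.939, 0.936 and 0.933) and Mettl11b, Rtp4 and Cntn1 for Lum (0.967, 0.95 and 0.949).

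These genes were picked for their likeness, so their values only describe it. Mctp1 had 44.4 ± 13.2 normalised reads in serum knockdown cells and 8.52 ± 9.3 in 2i knockdown cells, with 1 read over the 6 control libraries. Rtp4 had no read in either serum group or in the 2i controls and 105 ± 103 normalised reads in 2i knockdown cells. For Col6a3 the nearest were Mlph, Slc1a4 and Cd200 (0.894, 0.894 and 0.893), for Col11a1 Sh3rf2, Aox1 and Mettl11b (0.937, 0.918 and 0.917), and those for Col5a2 included Khdc1c and Gm12139 (0.94 and 0.892). Mettl11b was named for both Lum and Col11a1, and it had no read in serum and 48.6 ± 33.7 normalised reads in 2i knockdown cells against 1.15 ± 1.99 in 2i controls.

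The comparison of control cells between media was not the one that chose the members, although it shares the control libraries with those that did. It asks whether 2i changed the matrix genes without loss of Setdb1. None of the 5 members passed, where 3.62% of all genes tested did (limma, Benjamini-Hochberg adjusted p under 0.05). Cthrc1, Lum and Col6a3 had 0 to 11 reads a control group and were kept by the filter through their knockdown libraries, so they could hardly pass here and nothing is read from that count. Col5a2 was the 1 member with an unadjusted p under 0.05, as had 17.3% of all genes tested, and limma-voom on the recovered reads called 0 members.

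Col5a2 had 35.7 ± 11 normalised reads in 2i controls against 3.92 ± 5.87 in serum controls, 9.13-fold more (log2 change 1.28, SE 0.60, limma adjusted p = 0.285). Its groups did not overlap, which held in this direction for 11% of all genes tested. Col11a1 had 72 ± 25.3 against 41.8 ± 16.5 (0.49, SE 0.39, limma adjusted p = 0.587), with overlap. For the genes close to silence the changes were −0.17 for Cthrc1 (SE 0.35, limma adjusted p = 0.875), 0.17 for Lum (SE 0.48, limma adjusted p = 0.915) and −0.14 for Col6a3 (SE 0.39, limma adjusted p = 0.914). At 0 to 11 reads a group, differences in these were not detectable at this depth, and the sign for Col6a3 turned with quantile normalisation (0.01) and without serum shScr replicate 3 (0.21).

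Per kilobase, the order in 2i controls was Col11a1 at 9.39 ± 3.31 normalised reads, Col5a2 at 5.39 ± 1.66, then Lum, Cthrc1 and Col6a3, each under 1. The ranges of Col11a1 and Col5a2 overlapped. In 2i knockdown cells the order was Lum at 188 ± 133, Col11a1 at 48.6 ± 32.1, Col5a2 at 47.1 ± 46.1, Cthrc1 at 35.5 ± 20.2 and Col6a3 at 4.21 ± 0.173. Neighbours in that order overlapped in range down to Cthrc1, and Col6a3 had the lowest level, its highest library at 4.41 lying below the lowest of Col5a2 at 4.9. In serum knockdown cells Cthrc1 led at 459 ± 190, followed by Col11a1 at 5.55 ± 0.697, Col5a2 at 3.29 ± 1.72, Lum at 2.01 ± 0.812 and Col6a3 at 1.34 ± 1.52. Col5a2, Lum and Col6a3 overlapped there, and no library of Col5a2 reached the lowest of Col11a1, at 4.75.

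Other matrix genes were read from 10 lists of 177 genes that are not members, of which 118 passed the filter. In serum their median log2 change was 0.05 against 0.00 over all genes. A limma unadjusted p under 0.05 was found for 10 of the 118, beside 5.09% of all genes tested. After adjustment 1 of the 118 rose and 0 fell, where 0.649% of all genes tested passed (0.601% higher and 0.0483% lower). The gene was Plod2, a lysyl hydroxylase that prepares collagen for stable crosslinks, which rose 4.1-fold from 1280 ± 277 to 5230 ± 1460 normalised reads (log2 change 1.98, SE 0.32, limma adjusted p = 0.00668). Its call was lost without serum shSetdb1 replicate 2 (limma adjusted p = 0.0567). In 2i Plod2 had a change of 0.65 (limma adjusted p = 0.718), and the difference of its changes, −1.33, did not pass (SE 0.45, limma adjusted p = 1). With the replicate number as a block within each medium, 211 of all 14487 genes passed in serum in place of 94, and 2 of the list genes did: Plod2 again (limma adjusted p = 4.84e-04) and Nid1, a basement membrane linker, which fell by 1.07 (limma adjusted p = 0.0204).

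In 2i 0 of the 118 list genes passed in limma, 7 had an unadjusted p under 0.05 (beside 7.37% of all genes tested), and limma-voom gave 0, where 1.27% of all genes tested passed in limma (1.21% higher and 0.0552% lower). Their median was 0.01, the same as over all genes. For the difference between the media 0 of the 118 passed, with 4 at an unadjusted p under 0.05 and 0 by limma-voom. Over all 14487 genes that difference gave 0 calls in limma (0%) and in limma-voom, with 404 genes (2.79%) at an unadjusted p under 0.05.

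By list, the fibrillar collagens that are not members (4 of 9 tested) had a median of −0.32 in serum and 0.27 in 2i with none passing. Collagen VI chains (3 of 5 tested) had 0.44 and 0.24, other collagens (9 of 19) −0.05 and 0.24, and basement membrane genes (17 of 23) −0.13 and −0.08, again with none passing. Small leucine-rich proteoglycans other than Lum were almost all under the filter: 1 of 16, Tsku, was tested, with 0.31 in serum (limma adjusted p = 1) and 0.62 in 2i (limma adjusted p = 0.856). Thus most relatives of Lum and of the fibrillar members stayed too low to test.

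Collagen-processing enzymes (22 of 27 tested) had medians of 0.22 in serum, where Plod2 passed, and −0.08 in 2i. Collagen receptors (6 of 10 tested) had 0.59 and 0.15, and Itgb1, the integrin subunit shared by collagen-binding integrins, had changes of 0.59 (limma adjusted p = 1) and 0.22 (limma adjusted p = 0.917). Other matrix proteins (23 of 33) had 0.18 and 0.12. Spp1, which encodes osteopontin and was the most abundant of them, had changes of −0.58 and 0.52 (limma adjusted p = 1 and 0.871). Fibronectin, Fn1, had 4540 ± 1510 normalised reads in serum knockdown cells against 4070 ± 865 and 6250 ± 1820 in 2i knockdown cells against 6160 ± 3430, neither passing (limma adjusted p = 1 and 0.971). Genes of TGF-beta signalling (15 of 16) had −0.17 and −0.06, and Wnt planar polarity genes (18 of 19) 0.10 and −0.10.

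**Figure D2:**
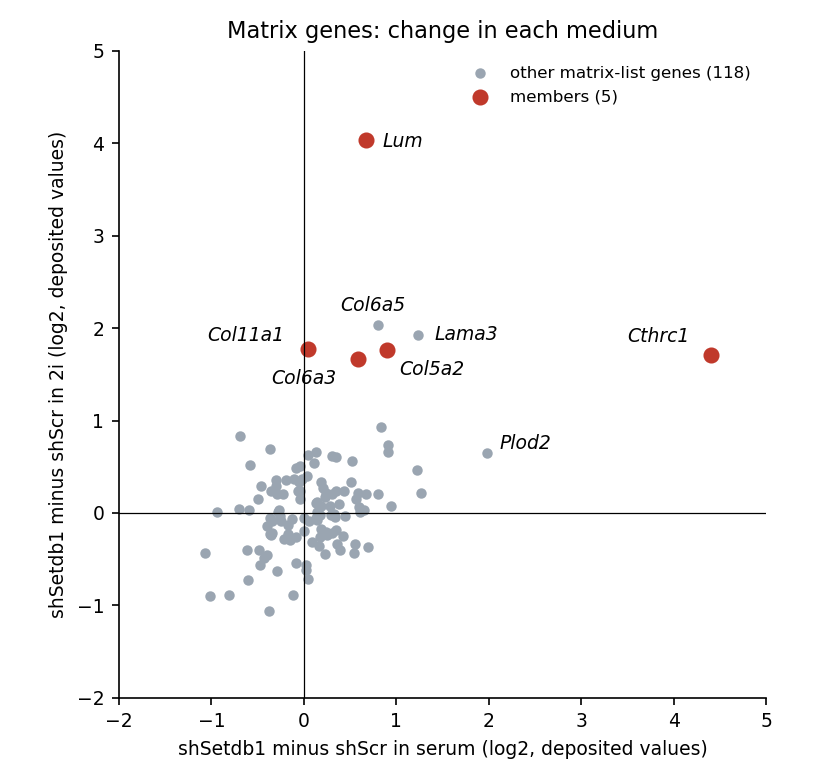
Log2 change of knockdown against control in serum (horizontal axis) and in 2i (vertical axis), in deposited values, for the 5 members (red) and the 118 other matrix-list genes tested (grey). The other genes lie mostly near 0 on both axes, Lum stands at 4.03 in 2i and 0.67 in serum, and Cthrc1 at 1.71 and 4.40. Plod2, Col6a5 and Lama3 are labelled, and of these 3 only Plod2 passed in limma, in serum.

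Between control cells of the 2 media, the 118 list genes had a median log2 change of −0.20 against −0.05 over all genes. Of them 38 had a limma unadjusted p under 0.05, beside 17.3% of all genes tested. After adjustment 5 were higher in 2i and 7 lower, beside 1.73% and 1.88% of all genes tested. Those lower in 2i included the cartilage collagens Col2a1, at 2.04 ± 0.858 against 45.9 ± 17.9 normalised reads (log2 change −1.47 with an SE of 0.34, limma adjusted p = 0.0259), and Col9a2, at 3.72 ± 4.2 against 84.8 ± 38.2 (−1.99, SE 0.40, limma adjusted p = 0.0124). The others were Col6a4 (−1.90), Col18a1 (−1.92), the laminin chain Lamb1 (−2.25), the TGF-beta repressor Skil (−1.81) and the ligand Wnt5a (−1.61). Col11a1, whose product assembles with type II collagen, and Col5a2 had positive changes here, and neither passed.

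Those higher in 2i included Nid1, at 3980 ± 532 against 1580 ± 588 normalised reads (log2 change 1.36, SE 0.32, limma adjusted p = 0.0271), the prolyl hydroxylation cofactor Crtap (1.26), the TGF-beta mediator Smad3 (1.23) and the planar polarity gene Prickle2 (2.31). Of these 12 calls, that of Prickle2 was the 1 that stayed whichever of the 12 libraries was left out. The count of 12 became 3, 2, 5, 4 and 1 without serum shScr replicate 1, serum shScr replicate 2 and 2i shScr replicates 1, 2 and 3 respectively.

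**Figure D3:**
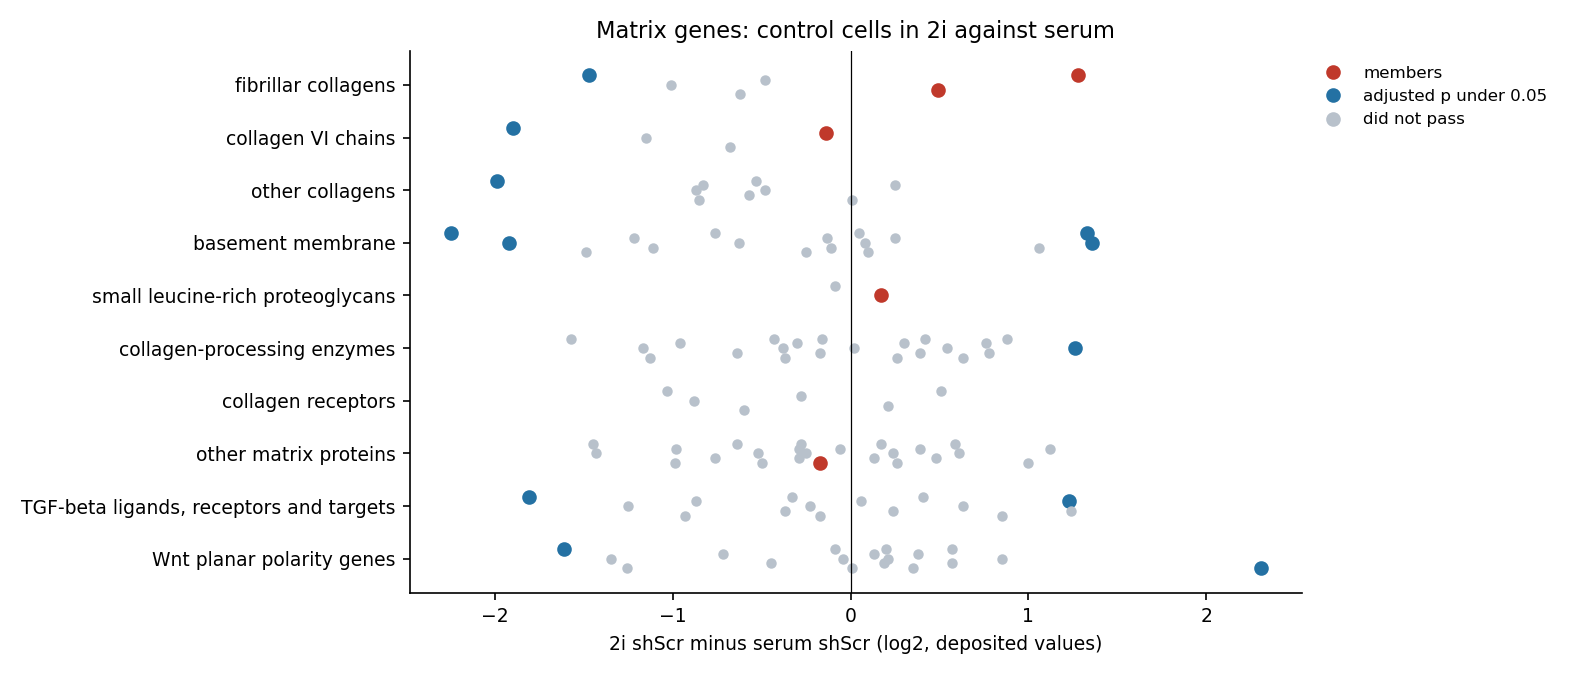
Log2 difference of 2i shScr minus serum shScr in deposited values (horizontal axis) for the matrix genes tested, 1 row per list, with members in red, genes at an adjusted p under 0.05 in blue and the rest in grey. The 2 fibrillar members, Col11a1 at 0.49 and Col5a2 at 1.28, lie to the right of the other fibrillar collagens, of which Col2a1 is at −1.47.

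To see whether a change extended along the chromosome, the nearest 2 protein-coding genes on each side of every member were read, by RefSeq gene order. Of these 20 neighbours 13 were tested, 7 were under the filter and 3 of those had no read in any library. In serum 0 of the 13 passed in limma, and 4 had an unadjusted p under 0.05, beside 5.09% of all genes tested. These 4 went in both directions, Fzd6 (1.22) and Mlph (0.93) up and Amy1 (−0.78) and Cxcr7 (−0.82) down. The median log2 change of the 13 in serum was −0.15. In 2i 2 of the 13 passed, both higher, beside 1.21% of all genes tested.

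Lum lies among other small leucine-rich proteoglycan genes, with Dcn before it and Kera and Epyc after it. Kera and Epyc had no read in any library and Dcn had 2 reads, both in 2i shSetdb1 replicate 1, beside 1253 reads of Lum over the 2i knockdown libraries. Btg1, an antiproliferative gene and the fourth neighbour, had changes of −0.07 and −0.20 (limma adjusted p = 1 and 0.955). In the 2i knockdown libraries the reads of this gene cluster were thus almost all those of Lum.

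Beside Cthrc1 lies Fzd6, a Wnt receptor of the planar polarity pathway. It had 113 ± 37.1 normalised reads in serum knockdown cells against 32.3 ± 21.8, with no overlap, and did not pass (log2 change 1.22, SE 0.43, limma adjusted p = 0.573). In 2i its change was 0.46 (limma adjusted p = 0.894). Slc25a32 had 0.53 and −0.06, Dcaf13 0.42 and 0.20, and Baalc no read.

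Next to Col6a3 lies Mlph, which encodes melanophilin, a link between melanosomes and their motor. It rose in 2i from 1.84 ± 3.19 to 39.9 ± 12.9 normalised reads, 21.7-fold (log2 change 1.57, SE 0.35, limma adjusted p = 0.0363). The call stayed in 6 of 12 fits that each left out 1 library, with adjusted p between 0.028 and 0.197, and was lost in limma-voom (adjusted p = 0.0958). It was lost without serum shScr replicate 2, serum shSetdb1 replicate 2, 2i shScr replicate 1 or 3, or 2i shSetdb1 replicate 2 or 3. In serum Mlph had 17.6 ± 9.52 against 2.49 ± 4.32 (limma adjusted p = 0.682). On the other side Cops8, a signalosome subunit, had changes of −0.15 and −0.02, and the chemokine receptor gene Cxcr7 −0.82 and −0.45 (limma adjusted p = 0.761 and 0.856). Prlh, beyond Mlph, had 6 reads, all in 2i shSetdb1 replicate 3. Mlph is also the gene whose values over the libraries were most like those of Col6a3.

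Near Col5a2 lies Col3a1, the type III collagen gene of the same cluster, which had 15 reads, all in 2i shSetdb1 replicate 1, and was not tested. Slc40a1, the iron exporter ferroportin and the next gene but one, rose in 2i from 14 ± 5.56 to 134 ± 89.3 normalised reads, 9.61-fold (log2 change 1.72, SE 0.40, limma adjusted p = 0.0454). This call stayed in 1 of the 12 fits that left out a library, the one without 2i shSetdb1 replicate 2, with adjusted p between 0.00372 and 0.194, and limma-voom gave an adjusted p of 0.197. Wdr75, needed for ribosome synthesis, lies between Col5a2 and Slc40a1 and had changes of −0.23 and 0.11. Gulp1, beyond Col3a1, had −0.50 and 0.18, and neither gene passed.

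Around Col11a1 none of the tested neighbours passed after knockdown. Rnpc3, a minor spliceosome protein, had changes of −0.27 in serum and 0.18 in 2i, and the salivary amylase gene Amy1, which has near-identical copies and is uncertain, −0.78 and 0.72. Olfm3 had 5 reads, all in serum shSetdb1 replicate 1. S1pr1, a receptor for sphingosine 1-phosphate, was the 1 neighbour that passed between control groups, at 118 ± 101 normalised reads in 2i against 7.47 ± 6.5 in serum (log2 change 1.99, SE 0.43, limma adjusted p = 0.0195). That call was lost without serum shScr replicate 1 or 2 or 2i shScr replicate 3, with adjusted p up to 0.098.

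**Figure D4:**
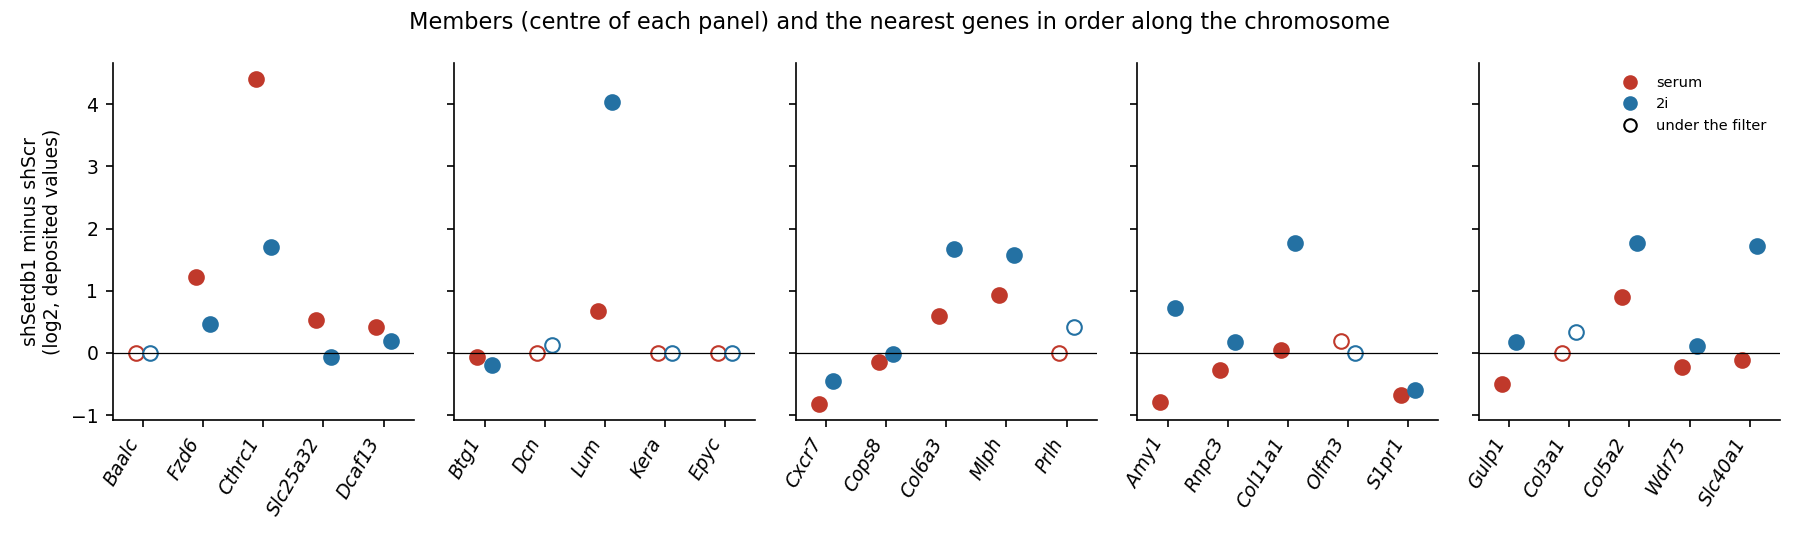
Log2 change of knockdown against control (vertical axis, deposited values) in serum (red) and 2i (blue) for each member, at the centre of its panel, and for the nearest 2 protein-coding genes on each side in gene order (horizontal axis, not to distance). Open symbols mark genes under the filter, and away from the members the 2i points of Mlph (1.57) and Slc40a1 (1.72) are the highest.

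Markers of cells that normally make these proteins were read for their summed level. The 20 fibroblast and mesenchyme markers outside the matrix lists, of which 11 were tested and none passed after knockdown, summed to 330 to 879 normalised reads in serum controls and 606 to 1150 in serum knockdown libraries. In 2i they summed to 430 to 728 in controls and 572 to 1020 after knockdown, so the ranges overlapped in both media. The 11 tested had a median log2 change of 0.12 in serum and −0.15 in 2i, with 7 and 5 of them above 0. A limma unadjusted p under 0.05 was found for 0 in serum and 2 in 2i, beside 5.09% and 7.37% of all genes tested. Fap, S100a4, Tcf21 and Foxf1 had no read in any library. Pdgfra, picked with its values known, had changes of −0.08 and −0.37, and Zeb1, the most abundant of the list, 0.46 and −0.39 (limma adjusted p = 1 and 0.875).

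The 10 chondrocyte markers, of which 4 were tested and none passed after knockdown, summed to 72.8 to 341 normalised reads in serum controls, 148 to 368 after serum knockdown, 67.2 to 305 in 2i controls and 134 to 484 after 2i knockdown. Sox9, the defining regulator of cartilage, had 13 reads in serum controls, 0 after serum knockdown, 0 in 2i controls and 3 after 2i knockdown, and Chad and Snorc had none. The 4 tested had a median log2 change of 0.29 in serum and 0.65 in 2i, with 3 and 4 of them above 0. In each medium 1 of the 4 had a limma unadjusted p under 0.05, beside 5.09% and 7.37% of all genes tested. Matn1, the most abundant of the list, had changes of −0.23 and 0.20 (limma adjusted p = 1 and 0.967). The 12 endoderm markers, 9 of them tested with none passing after knockdown, summed to 73.9 to 173 in 2i controls and 67 to 712 after 2i knockdown, and to 864 to 2950 and 622 to 3630 in serum. Lrp2 and Cubn of that list were lower in 2i than in serum controls (log2 changes −3.95 and −2.97, limma adjusted p = 0.0214 and 0.00218). The call of Lrp2 was lost without serum shScr replicate 1 or 2 or 2i shScr replicate 2 or 3, with adjusted p up to 0.104.

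The 10 pluripotency markers were all tested and none passed after knockdown or between control groups. Their median log2 change after knockdown was −0.14 in serum and −0.15 in 2i, with 2 and 3 of the 10 above 0. A limma unadjusted p under 0.05 was found for 3 in serum and 1 in 2i, beside 5.09% and 7.37% of all genes tested. The markers summed to 61200 to 78300 normalised reads in serum controls and 47200 to 83300 in serum knockdown libraries, and to 50100 to 70500 and 44500 to 73100 in 2i. Tdgf1, a Nodal co-receptor and the most abundant of them, had changes of −0.07 and 0.22 (limma adjusted p = 1 and 0.957). Pou5f1, which encodes OCT4, had 11700 ± 1580 normalised reads in serum knockdown cells against 13400 ± 1580, and 11800 ± 2140 in 2i knockdown cells against 10000 ± 2460. In each medium the summed pluripotency markers of the knockdown libraries overlapped in range with those of the controls, while most of the 10 markers had changes below 0. The part of small numbers of other cells in the level of the members was not tested.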

How the data were processed

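RNA sequencing of 12 libraries was used, 3 in each of 4 groups, as labelled. The authors deposited variance-stabilised values on a log2 scale, for genes and for repeat families. The submitters' processing notes list build mm9, TopHat2 2.0.9, Trim Galore 0.3.3 and DESeq2. How reads were counted, and on which annotation, is not given in the sources used here. Overlapping, antisense and near-identical genes are thus uncertain.

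The transformation was inverted in closed form, and 100% of gene values came out as whole reads within 0.01 read. Gene reads ranged from 4821181 to 15509401 per library. Repeat families served to describe composition only. A change in deposited values understates that of genes with few reads, so folds use mean normalised reads. With 0 control reads a fold is a bound against 3 reads over the group, and with 1 to 3 reads the ratio of summed reads, scaled by size factors, has an exact 95% interval. All intervals cover counting error only. Bounds cover only that of the 0 control reads and take the knockdown reads as exact.

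The filter on low values kept the 14487 genes with a mean 0.5 or more above the lowest value of the table (4.4522). Limma 3.58.1 under R 4.3.3 fitted 1 mean per group over 12 libraries, with 8 residual degrees of freedom and a variance trend, and two-sided p-values were adjusted by Benjamini-Hochberg over all genes tested. The script was tested on simulated data. Alternatives were 2 other filters, 3 other scalings or scales, limma-voom, fewer groups, replicate blocks and leaving out each library.

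Members and lists were chosen with earlier results of these data known. Named genes were the members, Setdb1, list genes that passed, the most abundant gene of a list with none, 2 neighbours on each side in RefSeq order (GRCm38, names only), and the 3 genes most correlated with each member. Partner chains of the members, and any other gene named, were picked with values known. A few genes that the rule names are not reported here. Deviations of same-numbered libraries correlated at 0.58, 0.23 and 0.51 between the serum groups, so the numbers were taken to pair them there. In 2i they correlated at 0.46, 0.06 and 0.52, and the numbers were not taken to pair them, although replicates 1 and 3 matched their own number best. The main fit held no block in either medium, so its p-values ignore any such pairing. Fits with replicate blocks are given as alternatives.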

Additional observations from a re-analysis of the deposited data

How the results depend on the processing

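The difference between Cthrc1 and Lum kept its direction under every alternative run. Because that difference singled out these genes in the same libraries, nothing is read from its persistence. On log2(normalised reads + 1) the changes were larger: for Cthrc1 8.09 in serum, 4.99 in 2i and −3.10 for the difference, for Lum 2.51, 7.79 and 5.28, for Col6a3 1.84, 4.66 and 2.81, and for Col5a2 2.80 in serum and −0.47 for the difference, which reversed. Quantile normalisation gave 0.35 for Lum in serum and 0.01 for Col6a3 between controls, a reversal. The cause of these shifts was not tested.

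Leaving out each library in turn gave differences of 2.88 to 4.11 for Lum and 0.12 to 1.76 for Col5a2, both highest without 2i shSetdb1 replicate 2. Col11a1 in serum ranged from −0.15 to 0.19, reversed without serum shScr replicate 2, and Col6a3 between controls from −0.35 to 0.21, reversed without serum shScr replicate 3. Matrix-list calls ranged from 0 to 2 in serum (0 without shSetdb1 replicate 2, and 2, with Prickle1, without shSetdb1 replicate 3), from 0 to 1 in 2i (1, Col6a5, without shSetdb1 replicate 2) and from 1 to 16 between controls.

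Matrix-list calls with no filter numbered 0 in serum, 1 in 2i (Postn) and 1 between controls. With a replicate block, 2 list genes passed in 2i (Col6a5 and Lama3), and with a replicate block within medium 3 did (those and Smad3, lower) and 2 in serum. Calls over all genes in 2i went from 184 to 321 with the block and 425 with the block within medium. Over all genes, the difference between the media gave 1 call with no filter, 1 without 2i shSetdb1 replicate 2 and 2 with a replicate block within medium. The block changed no other count of list calls by more than 1.5 times. Depth limits Cthrc1, Lum and Col6a3 in controls, where groups held 0 to 11 reads.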
